A study of Arabidopsis thaliana with 22 samples.

Results

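In Arabidopsis thaliana, 661 chromatin regions carried trimethylation of histone H3 at lysine 27 (H3K27me3) in both rosette leaf libraries and in none of the 6 libraries of shoot apices and inflorescences. They were chosen by the positions of deposited H3K27me3 islands alone. A window of 200 bp counted when it lay inside an island of both leaf libraries and of no other library, adjacent windows were joined, and regions of 400 bp or more were kept. The 661 regions spanned 557.2 kb, which was 3.04% of the 18.3 Mb under H3K27me3 islands in both leaf libraries. Regions of 400 bp or more with H3K27me3 in at least 1 of the 8 libraries numbered 8722, and those with it in all 8 libraries 6253. The same rule turned to the inflorescence gave 52 regions of 39.8 kb. Inflorescence replicate 1 was the shallowest H3K27me3 library, with 3779918 reads inside islands, against 4995796 in leaf replicate 1. The part of depth in these 2 numbers of regions was not tested. Because the H3K27me3 islands chose the regions, their H3K27me3 values are given as a description without a test. The tests below are on trimethylation of lysine 4 (H3K4me3), a mark that the rule did not use.

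H3K27me3 is laid down by Polycomb repressive complex 2 and covers genes that are held silent, in plants often whole gene bodies of developmental regulators. H3K4me3 is deposited by Trithorax-group methyltransferases near the start of transcribed genes. In leaves, Polycomb keeps genes of the shoot meristem silent as the organ matures, and its loss lets such genes become active outside the meristem.

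Both marks were mapped by chromatin immunoprecipitation and sequencing in 4 stages of the Landsberg erecta accession, with 2 biological replicates per stage and mark, 16 libraries in all. Leaf was the rosette leaf of flowering wild-type plants. Apex t0 was the untreated cauliflower-like apex of 35S::AP1:GR ap1-1 cal-1 plants, a double mutant that piles up inflorescence meristems, carrying a hormone-inducible fusion of the floral regulator AP1 under a viral promoter that is active in most tissues. Apex t2 was the same line 2 days after 10 µM dexamethasone, which moves the fusion protein into the nucleus. Inflorescence was the wild-type main inflorescence without flowers past stage 12. Leaf and inflorescence were thus wild type, while both apex stages carried the mutations and the transgene, so that stage and genotype cannot be told apart between leaf and apex. All tissues are mixtures of cell types, and fewer cells with a mark cannot be told apart from less of the mark per cell.

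Reads inside islands ranged from 3779918 to 19379225 per H3K27me3 library, with 4995796 and 18622099 in the leaf libraries, and from 6635471 to 23673881 per H3K4me3 library. Replicate 1 was the shallower library in each stage and mark. Replicates also differed in sonication, antibody lot, library kit and sequencer, so the replicate number stands for a technical batch, and values below are given for both replicates. The labelled tissues were checked by H3K4me3 on marker genes. Of 9 meristem markers, 0 had an island over 200 bp or more of the gene in either leaf library, against 9 in each apex library and 6 and 7 in the inflorescence libraries. Their summed H3K4me3 was 0 RPM in leaf, 653 and 818 RPM in apex t0, 727 and 810 RPM in apex t2, and 221 and 402 RPM in inflorescence, and the part of this difference in cell types in the results below was not tested. Of 9 leaf markers, which are photosynthesis genes and their regulator GLK1, 9 were marked in each leaf library, 9 in each apex t0 library, 8 in each apex t2 library and 9 in each inflorescence library. The gene without a mark was GLK1 in apex t2 replicate 1 and RBCS2B in apex t2 replicate 2. Their summed H3K4me3 was 874 and 778 RPM in leaf, 384 and 376 RPM in apex t0, 312 and 339 RPM in apex t2, and 623 and 638 RPM in inflorescence. Of 6 floral organ markers, 0 were marked in leaf, 0 and 2 in apex t0, 4 and 5 in apex t2, and 5 and 6 in inflorescence. Of 5 root genes 2 were marked in every library, and PLT1, PLT2 and WOX5, which define the root meristem, had no leaf island.

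The leaf-only regions were short. Their median width was 600 bp, with quartiles of 400 and 1000 bp, against a median of 2000 bp for all 6305 regions with H3K27me3 in both leaf libraries. The width of 400 bp, the smallest kept, was the most frequent, with 182 regions. A further 477 single windows of 200 bp met the same rule and fell just outside the width limit. A width of 1000 bp or more was reached by 208 regions, 2000 bp by 35, and the widest spanned 4000 bp. Chromosomes 1 to 5 held 199, 123, 99, 100 and 140 regions, which made up 3.35%, 3.11%, 2.21%, 3.06% and 3.25% of the H3K27me3 length shared by both leaf libraries on each chromosome.

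Most of the regions touched H3K27me3 of another stage. An H3K27me3 island of another stage lay in the window next to the region on 1 side for 363 regions (54.9%) and on both sides for 130 (19.7%). The remaining 168 regions (25.4%) stood apart, with no island of the 6 other libraries in the adjoining windows, and 127 of them had none within 1000 bp. Of the 493 regions that touched such an island, 219 touched one of a single other library and 60 touched windows marked in all 6. The regions that stood apart were wider, with a median of 800 bp against 600 bp in both other classes, and 45.2% of them reached 1000 bp. They lay in weaker and narrower leaf islands. The authors' fold over control of the leaf island had a median of 2.59 in replicate 1 and 2.46 in replicate 2 for regions that stood apart, 4.04 and 3.67 for those touched on 1 side, 4.61 and 4.18 for those touched on both, and 3.55 and 3.17 over all leaf islands. The median width of those islands was 1100 and 1200 bp, 3400 and 3800 bp, and 6400 and 6700 bp in the same order of classes. The part of sequencing depth in where islands end was not tested.

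**Figure D1:**
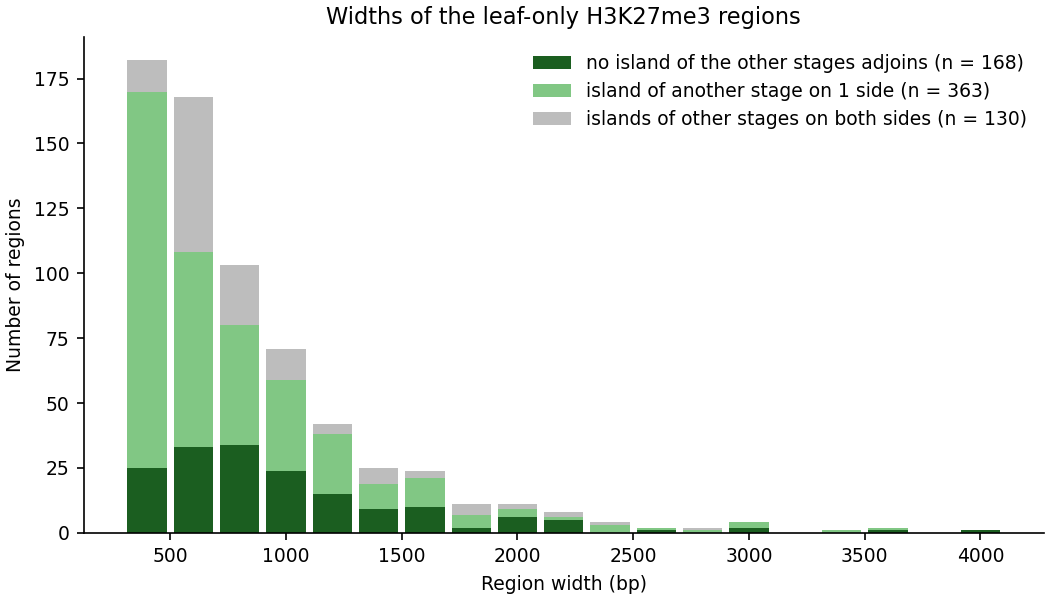
Number of leaf-only H3K27me3 regions (y axis) by region width in bp (x axis, steps of 200 bp), stacked by whether islands of the other stages adjoin the region. The narrowest class of 400 bp holds 182 regions, and the widest region, of 4000 bp, stands apart.

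The regions lay largely between genes. Protein-coding gene bodies made up 28.5% of their length, against 51.0% of all leaf H3K27me3 and 60.5% of the H3K27me3 present in all 8 libraries. The share was 35.4% in regions that stood apart, 26.99% in those touched on 1 side and 21.6% in those touched on both. No protein-coding body was touched by 393 regions (59.5%), of which 211 lay within 1000 bp of one. No annotated gene of any kind was touched by 342 regions. Gene coordinates came from a table of assembly TAIR10.1, set against the TAIR10 islands, and islands overlapped genes most with no offset in 118 bins of 1 Mb out of 119.

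Leaf-only regions covered 200 bp or more of 220 protein-coding genes, of 27432 in the table and 6614 with H3K27me3 in both leaf libraries. A symbol of their own was listed for 109 of the 220. At least 50% of the body was covered in 59 genes, and the median share was 28.1%. In 96 genes (43.6%) no H3K27me3 island of the other 6 libraries lay anywhere in the body, while the other 124 were marked elsewhere in the body in at least 1 other library. The regions also covered 26 genes of long non-coding RNAs, 10 of other RNAs listed as misc_RNA and 7 transcribed pseudogenes.

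The widest region, chr5:10649801-10653800 in TAIR10, overlapped AN3, also known as GIF1, a coactivator of growth-regulating factors that keeps leaf cells dividing. It spanned 4000 bp, stood apart, and took in 266 bp of the gene. On the AN3 body, H3K27me3 was 22.1 and 78.7 RPM (reads per 1e+06 reads in H3K27me3 islands of the library) in the leaf libraries, 0 in all 4 apex libraries, and 21.4 and 0 RPM in the inflorescence libraries. In these values 0 stands for no island, which is below the authors' threshold and not a measured absence of reads.

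The next widest regions lay mostly over genes known by locus only. The region chr5:15519001-15522600 covered 77.2% of AT5G38747, and chr5:20955401-20959000 covered 85.9% of AT5G51590, both over 3600 bp. The region chr2:18144001-18147000 covered 43.5% of AT2G43800, and chr5:18636601-18639400, together with chr5:18640401-18641800, covered 71.2% of AT5G45960. The region chr3:1966201-1969200 covered 34.3% of AT3G06435. Of the 10 widest regions, 4 touched no protein-coding gene. The widest of these, chr1:11581801-11585200 of 3400 bp, lay 1190 bp from CSLD6, a gene of the cellulose synthase-like D family.

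Among genes of 1000 bp or more with a symbol, the body was most completely covered in bZIP7, a basic leucine zipper gene, at 97.4%. It was followed by CLL2, of the family of secreted epidermal patterning peptides, at 89.8%, and by PROPEP1, the precursor of a peptide that elicits plant defence, at 84.0%. HB27, a homeobox gene, was covered to 76.9%, and DHNAT2, a thioesterase of phylloquinone synthesis, to 72.2%. On CLL2, H3K27me3 was 21.3 and 42.5 RPM in the leaf libraries and without an island in the 6 others. On PROPEP1 it was 23.8 and 24.8 RPM in leaf, and on HB27 29.4 and 30.0 RPM in leaf, both without an island elsewhere. On bZIP7 it reached 90.5 and 59.7 RPM in leaf, without an island in the gene elsewhere, although H3K27me3 of all 6 other libraries adjoined its region.

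H3K4me3 was scarcer over the regions in leaf than in the stages that lacked H3K27me3 there. H3K4me3 islands covered 5.71% and 9.87% of the region length in the leaf libraries, 12.2% and 14.5% in apex t0, 13.0% and 13.5% in apex t2, and 10.7% and 12.2% in inflorescence. Both leaf libraries lay below all 6 others, and leaf was lower within replicate 1 and within replicate 2. Over all H3K27me3 shared by both leaf libraries, the cover was 3.68% and 6.91% in leaf, 5.45% and 7.68% in apex t0, 5.38% and 6.51% in apex t2, and 4.88% and 5.93% in inflorescence. There the leaf libraries overlapped the others. Over the 5 whole chromosomes it was 13.7% and 17.5% in leaf, 15.1% and 17.6% in apex t0, 15.5% and 16.4% in apex t2, and 14.6% and 15.9% in inflorescence, again with overlap. No p is given for these shares, which are summed over chosen regions.

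**Figure D2:**
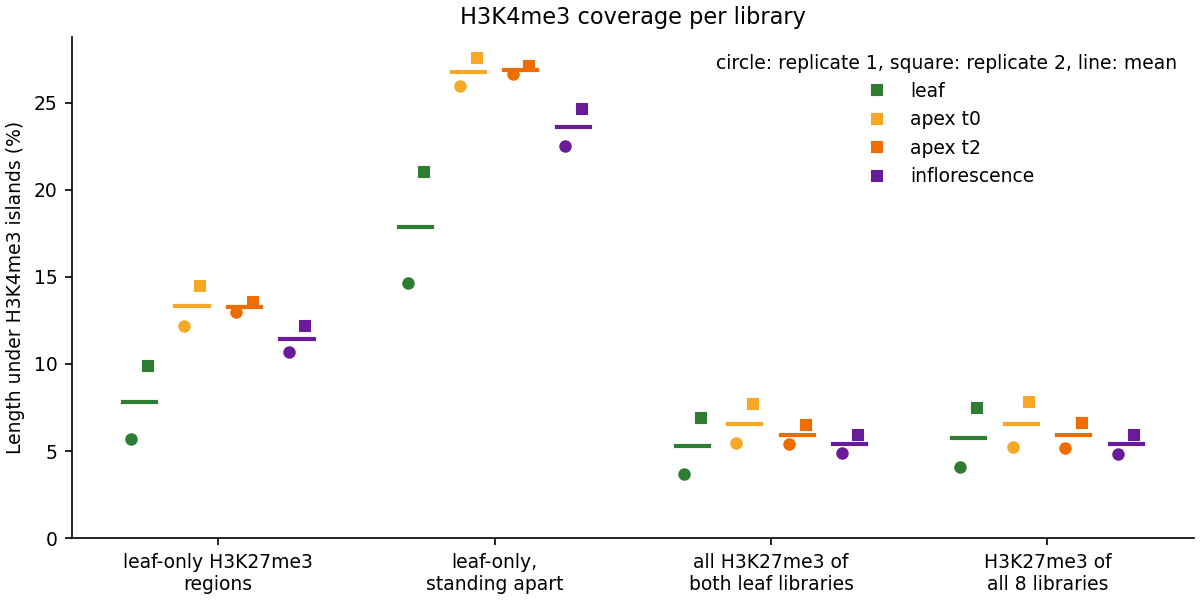
Percentage of length under H3K4me3 islands (y axis) in each library for 4 sets of H3K27me3 windows (x axis), with circles for replicate 1, squares for replicate 2 and a line at their mean. In the leaf-only regions both leaf libraries, at 5.71% and 9.87%, lie below the other 6, and in the 2 comparison sets on the right the stages overlap.

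The level within the covered length was also lower in leaf, at 42.0 and 38.5 RPM per covered kb, counted over all reads in H3K4me3 islands of the library, against 55.6 and 46.2 in apex t0, 51.1 and 49.3 in apex t2, and 52.1 and 48.1 in inflorescence. The covered length was 31.8 and 55.0 kb in leaf, 68.0 and 80.6 kb in apex t0, 72.2 and 75.4 kb in apex t2, and 59.4 and 67.8 kb in inflorescence. Both leaf libraries thus lay below all 6 others in covered length and in level per length.

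Most regions carried no H3K4me3 at any stage. No library had an H3K4me3 island over 519 regions (78.5%). Both libraries of a stage had one over 49 regions in leaf, 106 in apex t0, 110 in apex t2, with 90 in inflorescence. No region had H3K4me3 in both leaf libraries and in no other library. Among the 168 regions that stood apart, the counts were 37 in leaf, 58 in apex t0, 58 in apex t2, with 52 in inflorescence, and 106 of them had no H3K4me3 in any library. In the 130 regions touched on both sides they were 1, 8, 9 and 5, and 116 had none.

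Both marks were called on the same windows in leaf at some regions. H3K4me3 islands lay over 46 regions in all 8 libraries, 36 of which stood apart. The median H3K4me3 over these 46 was 21.6 and 27.8 RPM in the leaf libraries, 46.1 and 40.8 in apex t0, 44.3 and 43.7 in apex t2, and 41.6 and 42.2 in inflorescence. Both leaf values lay below all 6 others in 27 of the 46 and above all 6 in 0. This order was not counted over other H3K27me3 regions, so it cannot be called particular to the leaf-only ones. On whole gene bodies, a different unit, both leaf libraries lay below all 6 others for 12.4% of all tested genes and above for 14.4%.

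H3K4me3 in all 6 other libraries and in neither leaf library was found over 10 regions. The genes touched were AGP31, ORS1 with AT2G41231, CLL2, AT1G09470, AT1G23000, GH9B8, ANT, AT4G25160 and JAZ10, and the tenth region lay 2069 bp from the nearest gene. The pattern was not counted over other regions, so it cannot be called particular to these. It describes the region and not always the gene. JAZ10 and GH9B8 had leaf H3K4me3 elsewhere in the body, for GH9B8 3.76 RPM in leaf replicate 2 only. On whole gene bodies, 7.27% of the genes under regions had it, with 200 bp or more marked in each other library. The share was 0.787% of all genes of the table and 1.53% of those with H3K27me3 in both leaf libraries. Over the CLL2 region, chr4:8440001-8441000, H3K4me3 was 0 in both leaf libraries, 39.7 and 46.1 RPM in apex t0, 39.8 and 40.5 in apex t2, and 23.2 and 26.7 in inflorescence. Over the ANT region, chr4:17740801-17741600, it was 0 in both leaf libraries, 32.8 and 44.1 in apex t0, 37.3 and 35.9 in apex t2, and 7.70 and 18.3 in inflorescence. Over the AT1G23000 region, chr1:8143401-8144200, it was 0 in both leaf libraries, 71.3 and 47.8 in apex t0, 57.9 and 50.9 in apex t2, and 14.8 and 21.5 in inflorescence. In all 3 regions the inflorescence libraries lay between leaf and the apices. This did not hold for all 10, as the JAZ10 region had 9.99 and 9.71 RPM in inflorescence, against 7.67 and 9.68 in apex t0.

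At the level of whole gene bodies, every gene under a leaf-only region that passed the test was lower in H3K4me3 in leaf than in the stage it was set against. H3K4me3 per gene was the sum of island reads over the body, scaled to RPM over the island reads on tested genes. The test was limma on log2(RPM + 1) over the 17577 genes that had an island on 200 bp or more in both replicates of some stage. Of the 220 genes 156 passed that filter, and 50 had no H3K4me3 island in any library. A gene can pass the filter through the stages where it is high, so the counts are a description. Against apex t0, 39 genes under regions were lower in leaf and 0 higher by limma at an adjusted p under 0.05, where 3.81% of all tested genes were lower and 4.25% higher. Against apex t2, 38 were lower and 0 higher, where 3.6% and 4.53% of all tested genes were. Against inflorescence, 28 were lower and 0 higher, where 2.16% and 1.93% of all tested genes were. At an unadjusted p under 0.05 by limma, 3, 2 and 0 of the 156 were higher in leaf than in apex t0, apex t2 and inflorescence, and 82, 79 and 54 were lower. Of all 17577 tested genes, 2062, 1960 and 1215 were higher at that threshold, and 2057, 1959 and 1308 lower. With only islands of fold 2 or more, 150 genes under regions were tested. Of these, 2 were higher in leaf in each comparison, and 35, 33 and 22 lower. Of all 16984 genes tested in that fit, 3.5%, 3.19% and 1.36% were lower in leaf, and 690, 711 and 421 genes higher. The 3 comparisons share the leaf libraries and are not independent. The fit had no term for the replicate number. With that term (the replicate block), 47, 45 and 30 genes under regions were lower in leaf and 1, 1 and 0 higher. Of all tested genes, 6.16%, 5.9% and 2.91% were then lower, and 1307, 1352 and 457 genes higher.

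The counts depended on single libraries, as did those over all genes. Against apex t0 the 39 became 10 without apex t0 replicate 1, 16 without apex t0 replicate 2, 18 and 23 without apex t2 replicates 1 and 2, and 99 without leaf replicate 2, where 0.337%, 1.26%, 1.48%, 1.91% and 12.7% of all tested genes were lower. Against apex t2 the 38 became 5 and 8 without apex t2 replicates 1 and 2, and 100 without leaf replicate 2, where 0.162%, 0.261% and 12.4% of all tested genes were lower. Against inflorescence the 28 became 15 and 18 without apex t0 replicates 1 and 2, 10 without either apex t2 replicate, 14 without inflorescence replicate 2, and 81 without leaf replicate 2, where 0.961%, 1.45%, 0.329%, 0.347%, 0.868% and 8.87% of all tested genes were lower. In each of these fits the share among the genes under regions, from 3.12% to 63.3%, was above the share among all genes tested in it.

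In the share of genes under regions with H3K4me3, leaf replicate 2 lay between leaf replicate 1 and the other stages. An H3K4me3 island over 200 bp or more lay on 40.0% and 60.5% of the 220 genes in leaf replicates 1 and 2, on 67.7% and 72.3% in apex t0, on 69.1% and 71.4% in apex t2, and on 62.7% and 68.6% in inflorescence. Over all genes of the table these shares were 57.9% and 64.3% in leaf, 60.5% and 64.0% in apex t0, 60.8% and 62.6% in apex t2, and 60.4% and 61.8% in inflorescence. Both leaf libraries lay below all 6 others for 76 of the 156 tested genes under regions (48.7%), as for 12.4% of all tested genes, and above all 6 for 1, as for 14.4% of all tested genes.

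Genes with H3K4me3 islands in all 4 libraries of a comparison allow a difference that does not rest on a missing island. For these, the median difference was -0.76 on the log2(RPM + 1) scale for 82 genes under regions in leaf minus apex t0, beside 0.03 for all 14966 such genes. It was -0.76 for 83 genes in leaf minus apex t2, beside 0.01 for all 14983, and -0.58 for 83 genes in leaf minus inflorescence, beside 0.01 for all 15113. Among the called genes, 16 of 39, 15 of 38 and 10 of 28 had islands in all 4 libraries, and 21, 21 and 16 had none in either leaf library. Where both leaf values are 0 the leaf libraries add no spread to the fit, so the p-values of those genes may be too small.

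**Figure D3:**
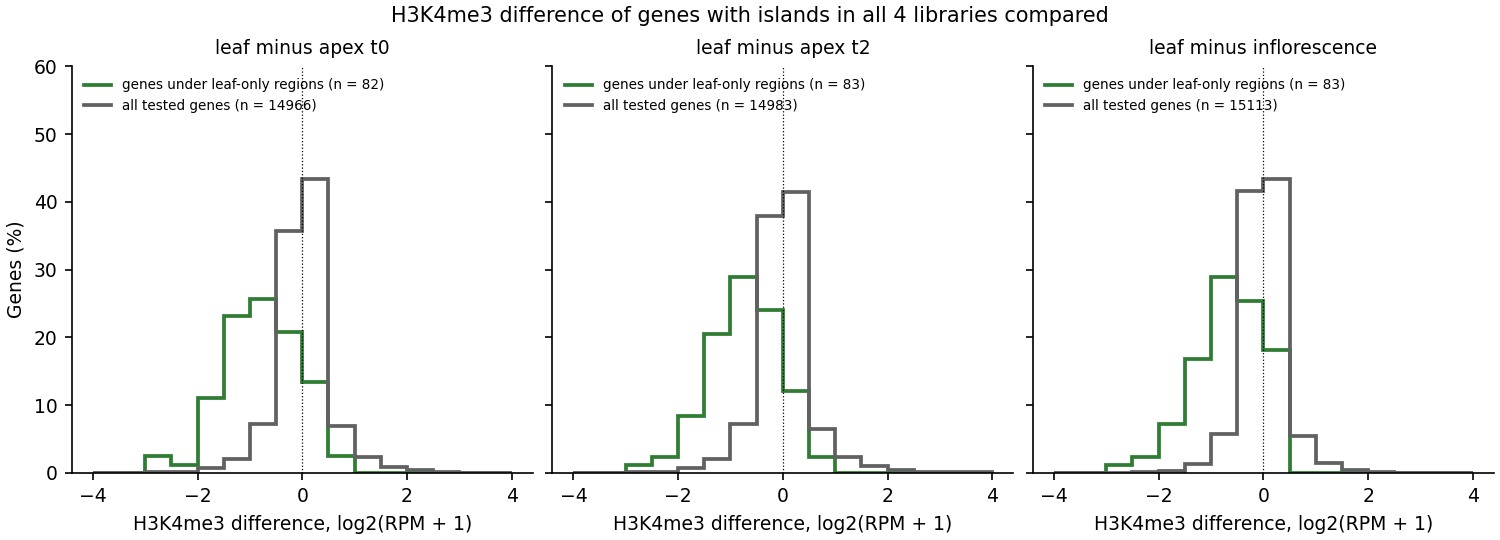
Percentage of genes (y axis) by H3K4me3 difference in bins of 0.5 on the log2(RPM + 1) scale (x axis), for leaf minus each other stage, over genes with H3K4me3 islands in all 4 libraries compared. Genes under leaf-only regions, with medians of -0.76, -0.76 and -0.58, lie to the left of all tested genes, whose medians are 0.03, 0.01 and 0.01.

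Regulators of the meristem and of organ growth were among the genes with no leaf H3K4me3. Genes named from here on with 0 RPM in both leaf libraries passed the filter only through other stages. Leaf adds no spread to their fit, so their p-values may be too small. Leaving out 1 leaf library leaves the other at 0, so a call that then holds adds no support from leaf. ANT, an AP2-type factor that promotes cell division in young organs, had 0 RPM of H3K4me3 in both leaf libraries, 102 and 124 RPM in apex t0, 120.0 and 119 RPM in apex t2, and 57.8 and 78.1 RPM in inflorescence. ANT was lower in leaf in all 3 comparisons (limma, adjusted p = 0.000391 against apex t0, 0.000372 against apex t2 and 0.000565 against inflorescence), and each call held when any 1 library was left out. H3K27me3 on ANT was 103 and 118 RPM in leaf, without an island in the apices, and 18.5 and 49.7 RPM in inflorescence, and leaf islands covered 100% of the body, of which leaf-only regions made up 807 bp.

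AIL7, a relative of ANT that acts with it in the meristem, had 0 RPM of H3K4me3 in both leaf libraries, 66.5 and 118 RPM in apex t0, 53.6 and 87.4 RPM in apex t2, and 42.6 and 57.9 RPM in inflorescence. AIL7 was lower in leaf against all 3 stages (limma, adjusted p = 0.00237, 0.00297 and 0.00499 in that order), and the apex t2 call was lost without either apex t2 library. H3K27me3 covered 70.6% and 90.5% of AIL7 in the leaf libraries and 20.1% to 40.2% in the other 6, so the region chr5:26187201-26188400 lay in a gene that carried the mark at every stage.

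ARF5, also known as MONOPTEROS, the auxin response factor that starts organs at the meristem flank, had 0 RPM in both leaf libraries, 129 and 143 RPM in apex t0, 153 and 166 RPM in apex t2, and 21.9 and 74.3 RPM in inflorescence. ARF5 was lower in leaf (limma, adjusted p = 0.00306 against apex t0, 0.00284 against apex t2 and 0.00869 against inflorescence). These calls were lost without apex t0 replicate 1 in the first comparison, without apex t2 replicate 1 in the second, and without either apex t2 library or leaf replicate 1 in the last. The region, chr1:6886201-6887000, covered only 332 bp of the body, and ARF5 had no H3K27me3 island in the 6 other libraries.

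AN3, under the widest region, had 0 RPM of H3K4me3 in both leaf libraries, 82.9 and 108 RPM in apex t0, 89.0 and 88.4 RPM in apex t2, and 19.5 and 48.8 RPM in inflorescence. AN3 was lower in leaf against all 3 stages (limma, adjusted p = 0.00309, 0.00299 and 0.00903). The call against apex t0 was lost without apex t0 replicate 1, and the other 2 without either apex t2 library. CYCD3;1, a D-type cyclin that drives cells into division, had 51.2 and 8.43 RPM in leaf, 170.1 and 104 RPM in apex t0, 154 and 142 RPM in apex t2, and 142 and 119 RPM in inflorescence. Its leaf values lay below all others without passing the test (limma, adjusted p = 0.103, 0.0908 and 0.187). With the replicate number as a term of the fit (the replicate block), the calls against apex t0 and apex t2 passed, with an adjusted p of 0.045 against apex t0. Its region, chr4:16358601-16359400, stood apart, with no H3K27me3 island of another stage in the gene.

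AGP31 and GH9B13, of the cell wall and surface, kept their calls without any 1 library. AGP31, a proline-rich arabinogalactan protein, had 0 RPM in both leaf libraries, 151 and 131 RPM in apex t0, 127 and 125 RPM in apex t2, and 81.8 and 107 RPM in inflorescence. AGP31 was lower in leaf against all 3 stages (limma, adjusted p = 0.00021, 0.000229 and 0.000379), and no call was lost without any 1 library. GH9B13, an endoglucanase-type glycosyl hydrolase, had 0 RPM in both leaf libraries, 80.6 and 104 RPM in apex t0, 96.5 and 105 RPM in apex t2, and 59.3 and 83.1 RPM in inflorescence. It was lower in leaf in the same way (limma, adjusted p = 0.000467, 0.000436 and 0.000797), with no call lost. The region on GH9B13, chr4:1002001-1003200, stood apart, and H3K27me3 on the gene was 27.4 and 46.0 RPM in leaf and without an island elsewhere. H3K27me3 on AGP31 was 80.6 and 78.5 RPM in leaf, without an island in the apices, and 48.1 and 0 RPM in inflorescence. Leaf-only regions covered 26.9% of the AGP31 body.

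ZFHD1, a zinc finger homeodomain factor, had 0 RPM of H3K4me3 in both leaf libraries, 79.9 and 68.9 RPM in apex t0, 77.8 and 75.9 RPM in apex t2, and 39.3 and 47.0 RPM in inflorescence. ASE1, an amidophosphoribosyltransferase of purine synthesis, had 0 RPM in both leaf libraries, 63.7 and 63.8 RPM in apex t0, 57.2 and 67.6 RPM in apex t2, and 36.6 and 47.9 RPM in inflorescence. Both were lower in leaf in all 3 comparisons (limma, adjusted p from 0.00111 to 0.00385), with calls against apex t2 lost without apex t2 replicate 1 for both and also without apex t2 replicate 2 for ASE1. H3K27me3 on ZFHD1 was 70.5 and 62.1 RPM in leaf, without an island in the apices, and 48.8 and 42.8 RPM in inflorescence. On ASE1 it was 139 and 91.2 RPM in leaf, again without an island in the apices, and 79.6 and 31.7 RPM in inflorescence.

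BEN1, an enzyme that lowers brassinosteroid levels, had 0 RPM of H3K4me3 in both leaf libraries, 40.9 and 33.2 RPM in apex t0, 39.9 and 37.9 RPM in apex t2, and 6.46 and 23.7 RPM in inflorescence. It was lower in leaf than in both apex stages (limma, adjusted p = 0.012 and 0.0115), and the difference from inflorescence did not pass (0.0595). The apex t0 call was lost without either apex t0 library, apex t2 replicate 1 or leaf replicate 1, and the apex t2 call without either apex t2 library or leaf replicate 1. CLL2 had 0 RPM in both leaf libraries, 41.3 and 49.6 RPM in apex t0, 41.3 and 42.6 RPM in apex t2, and 24.8 and 28.6 RPM in inflorescence, and was lower in leaf in all 3 comparisons (limma, adjusted p = 0.00493, 0.00494 and 0.00987). The CLL2 call against apex t0 was lost without apex t0 replicate 1, and the others without either apex t2 library.

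Other genes kept H3K4me3 in leaf at a lower level. AT2G43800 had 22.5 and 55.5 RPM in the leaf libraries, 247 and 197 RPM in apex t0, 212 and 193 RPM in apex t2, and 192 and 179 RPM in inflorescence. The difference of leaf minus apex t0 was -2.61 ± 0.40 on the log2(RPM + 1) scale (SE of the fit, n = 2 libraries each, limma adjusted p = 0.0139), that against apex t2 -2.48 ± 0.40 (limma, adjusted p = 0.0162) and that against inflorescence -2.35 ± 0.40 (limma, adjusted p = 0.0303). HB27 had 10.9 and 19.7 RPM in leaf, 61.7 and 48.8 RPM in apex t0, 51.9 and 50.9 RPM in apex t2, and 56.9 and 49.0 RPM in inflorescence. Its differences were -1.83 ± 0.29, -1.74 ± 0.29 and -1.78 ± 0.29 (limma, adjusted p = 0.0152, 0.0177 and 0.0259). AT3G06435 had 18.3 and 28.4 RPM in leaf, 45.2 and 56.2 RPM in apex t0, 49.4 and 49.5 RPM in apex t2, and 47.9 and 50.3 RPM in inflorescence, and was lower in leaf than in apex t0 (limma, adjusted p = 0.0398) and apex t2 (0.0437), while the difference from inflorescence did not pass (0.0736, or past the threshold with the replicate block). All of these calls were lost without apex t2 replicate 1, and each also without other single libraries. The AT3G06435 calls were lost without any library other than leaf replicate 2.

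Other genes under regions did not pass the test. AZG1, a purine and cytokinin transporter, had 155 and 152 RPM in leaf, 191 and 143 RPM in apex t0, 168 and 144 RPM in apex t2, and 210.3 and 159.5 RPM in inflorescence. The leaf values lay within the range of the others, and the difference from apex t0 was -0.11 ± 0.22 (SE of the fit, limma adjusted p = 0.82). SEP4, a MADS-box gene of floral meristem and organ identity, had 54.1 and 33.2 RPM in leaf, 42.8 and 59.9 RPM in apex t0, 49.7 and 52.6 RPM in apex t2, and 35.8 and 50.9 RPM in inflorescence. It did not pass any test (limma, adjusted p = 0.667, 0.669 and 1), while H3K27me3 on it was 186 and 110.0 RPM in leaf, 13.0 and 0 RPM in apex t0, 0 in apex t2, and 0 and 22.5 RPM in inflorescence. KAN3, a KANADI factor of abaxial organ identity, had 20.2 and 54.5 RPM of H3K4me3 in leaf, 16.8 and 31.8 RPM in apex t0, 19.5 and 31.1 RPM in apex t2, and 33.1 and 42.3 RPM in inflorescence, so that the leaf range overlapped that of each other stage (limma, adjusted p = 0.64, 0.725 and 0.955).

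AGL42, a MADS-box gene of the SOC1 clade that promotes flowering, had 14.0 and 86.4 RPM of H3K4me3 in leaf, 72.0 and 90.2 RPM in apex t0, 80.3 and 74.4 RPM in apex t2, and 34.0 and 81.9 RPM in inflorescence. The spread between its leaf libraries was larger than any difference between stages, and it passed no test (limma, adjusted p = 0.452, 0.5 and 0.832). EXL4, a gene of the EXORDIUM family of growth regulators, had 35.4 and 81.1 RPM in leaf, 118 and 89.9 RPM in apex t0, 101 and 92.1 RPM in apex t2, and 100.1 and 78.5 RPM in inflorescence. AGP9, an arabinogalactan protein, had 85.5 and 35.5 RPM in leaf, 130.0 and 96.0 RPM in apex t0, 119 and 95.8 RPM in apex t2, and 134 and 95.4 RPM in inflorescence. Neither passed a test (limma, adjusted p from 0.214 to 0.472).

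AT5G51590 had 18.0 and 63.1 RPM of H3K4me3 in leaf, 93.4 and 90.8 RPM in apex t0, 94.4 and 94.0 RPM in apex t2, and 72.6 and 77.7 RPM in inflorescence, below all others in leaf without passing a test (limma, adjusted p = 0.167, 0.166 and 0.4). AT5G45960 had 0 RPM in both leaf libraries, 24.7 and 36.4 RPM in apex t0, 27.2 and 28.9 RPM in apex t2, and 21.2 and 44.6 RPM in inflorescence, and was lower in leaf (limma, adjusted p = 0.00911, 0.00945 and 0.0143), with calls lost without single apex or inflorescence libraries. bZIP7 had 0 and 24.7 RPM in leaf, 33.0 and 45.1 RPM in apex t0, 35.4 and 41.1 RPM in apex t2, and 21.9 and 34.1 RPM in inflorescence, and DHNAT2 ranged from 10.6 to 30.7 RPM over the 8 libraries. Neither passed a test (limma, adjusted p = 0.277, 0.295 and 0.503 for bZIP7, and 0.431, 0.446 and 0.624 for DHNAT2).

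PROPEP1 lacked an H3K4me3 island in inflorescence as well. It had 0 RPM of H3K4me3 in both leaf libraries, 17.2 and 24.7 RPM in apex t0, 23.9 and 24.1 RPM in apex t2, and 0 RPM in both inflorescence libraries. It was lower in leaf than in apex t0 (limma, adjusted p = 0.0127) and apex t2 (0.011), calls that were lost without single apex libraries. AT5G38747 had no H3K4me3 island over 200 bp in both replicates of any stage and was not tested.

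**Figure D4:**
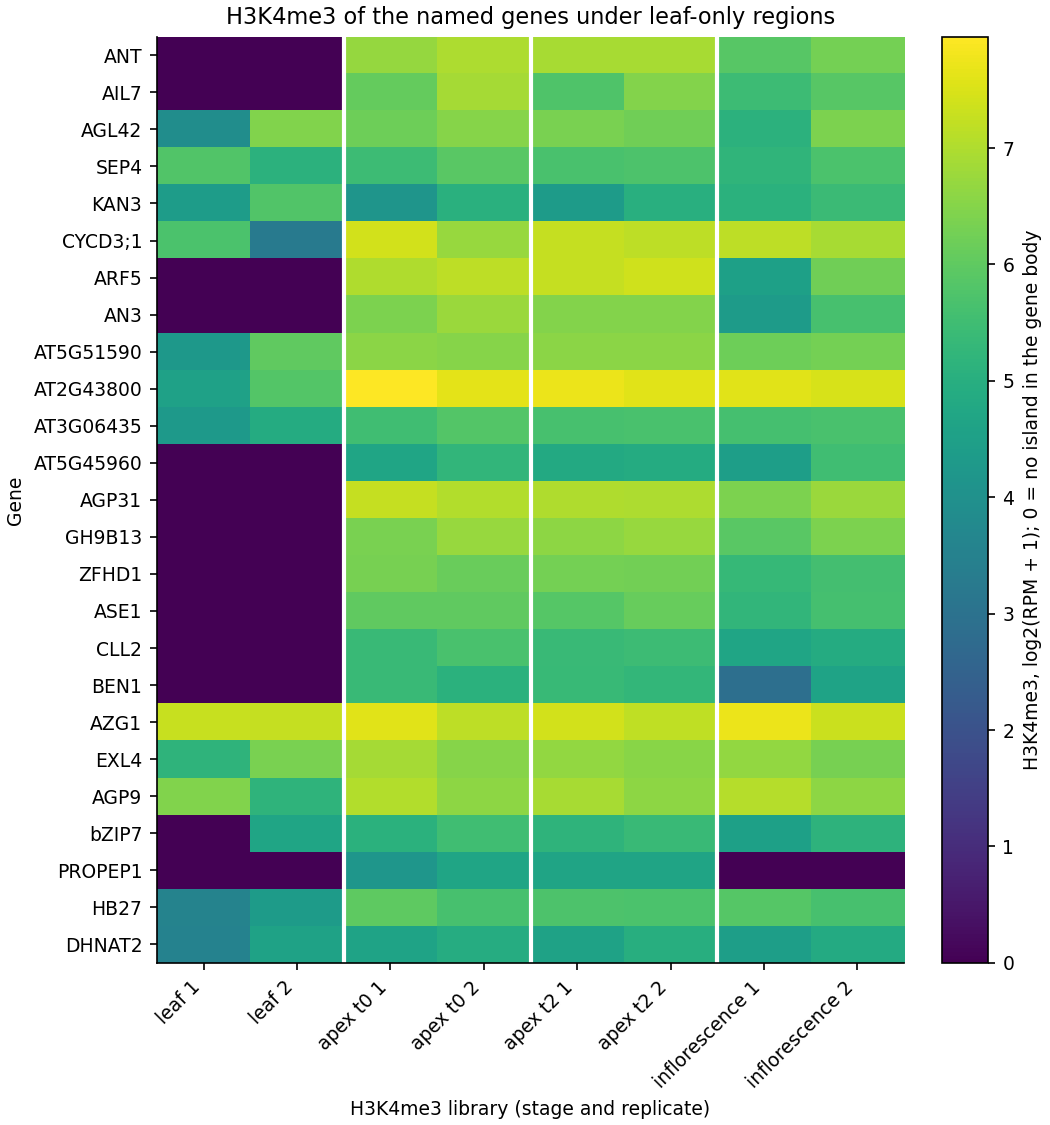
H3K4me3 as log2(RPM + 1) (colour) of 25 named genes under leaf-only regions that were tested (y axis) in the 8 H3K4me3 libraries (x axis), where 0 means no island in the gene body. Genes such as ANT, AGP31 and GH9B13 have no island in either leaf library and one in all 6 others, while AZG1, SEP4 and KAN3 are marked in leaf as well.

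In the lists of genes that these members belong to, the genes under leaf-only regions stand beside 0.802% of all protein-coding genes of the table. Among genes with H3K27me3 in both leaf libraries, the share under such regions was 3.33%. Over all tested genes, 3.81%, 3.6% and 2.16% were lower in leaf than in apex t0, apex t2 and inflorescence, and 4.25%, 4.53% and 1.93% higher, which the counts of each list stand beside. At an unadjusted p under 0.05 by limma, 2057, 1959 and 1308 of all 17577 tested genes were lower, and 2062, 1960 and 1215 higher. Of 22 listed meristem and organ boundary genes, ANT and AIL7 lay under regions, although 20 carried H3K27me3 in both leaf libraries. H3K4me3 was lower in leaf than in apex t0 for 15 of the 20 tested, than in apex t2 for 15 and than in inflorescence for 10, and higher for 0 in each. Of 26 flowering time and floral meristem identity genes, AGL42 lay under a region. In that list 8 of 20 tested were lower in leaf than in apex t0, 8 than in apex t2 and 6 than in inflorescence, and 0, 0 and 1 were higher. Of 13 floral organ identity genes, SEP4 lay under a region, and of 6 tested 0, 2 and 2 were lower in leaf in the same order and 0 higher. At an unadjusted p under 0.05 by limma, 0, 4 and 5 of these 6 were lower and 0 higher.

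Of 23 genes of organ polarity and leaf growth, KAN3 lay under a region, and of 22 tested 5, 6 and 3 were lower in leaf than in apex t0, apex t2 and inflorescence, while 2, 2 and 1 were higher. Of 14 cell division genes, CYCD3;1 lay under a region and was the only one with H3K27me3 over 200 bp of its body in both leaf libraries. In that list 5, 5 and 4 of 14 were lower in leaf and 0 higher. At an unadjusted p under 0.05 by limma, 11, 11 and 9 were lower and 0 higher. Of 13 auxin genes, ARF5 lay under a region, and 2, 2 and 1 of 13 were lower in leaf, while 2, 2 and 0 were higher. None of 9 photosynthesis genes and none of 5 root genes lay under a region. Of the 9 photosynthesis genes 3, 3 and 0 were higher in leaf and 0 lower, and at an unadjusted p under 0.05 by limma 3, 6 and 1 were higher. Of the 2 root genes tested 0 passed in any comparison, with 1, 1 and 0 lower at an unadjusted p under 0.05 by limma. The lists were drawn up with earlier results of these data known, so their counts are not independent evidence of a direction.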

How the data were processed

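The submitters' processing notes name SICER 1.1, Picard 1.93, SAMtools 0.1.19, bedtools 2.17.0-97, BWA 0.6.2-r126 and CASAVA 1.8.2, and build TAIR10. SICER's window and gap size is not given in the sources used here. The authors deposited 1 table of islands per library with position, ChIP read count, control read count, fold over control, p-value and adjusted p-value, each called on that library alone. That fold, as deposited, served only to describe or filter islands. The 6 input samples, of apex t2 and inflorescence, were not used here, and the labels list no input of leaf or apex t0. All 185426 islands on the 5 chromosomes started at a multiple of 200 bp, with a largest adjusted p of 9.99644e-05. A missing island is a value under the authors' threshold.

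Islands were read with Python 3.11.15, numpy 2.4.6 and pandas 2.3.3. Reads were apportioned to gene bodies by overlap, scaled to RPM and by a trimmed mean of log ratios (30% of ratios and 5% of levels trimmed), and log2(RPM + 1) was fitted by limma 3.58.1 (R 4.3.3, statmod 1.5.0) with a mean trend and robust moderation over all 8 H3K4me3 libraries, leaving 4 residual degrees of freedom. P-values are two-sided and adjusted by Benjamini-Hochberg over all tested genes, with a threshold of 0.05. Genes came from a RefSeq table of assembly TAIR10.1. The labels' protocols tie each replicate number to a technical batch, and deviations of same-numbered libraries from their stage means correlated at 0.23 to 0.44 over the 6 pairs of stages, so the numbers pair the libraries. The main fit had no replicate term, so its p-values leave this pairing out, and the replicate block is given as an alternative.

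The regions and gene lists were chosen with earlier results of these data known. Genes were named if they were in a list and under a region, lay under the 10 widest regions, were among the 10 (apex t0) or 5 (apex t2, inflorescence) called genes with the largest H3K4me3 difference, or were among the 5 with the highest H3K4me3 per kb or the largest share of body covered. Called genes without a symbol, 16, 15 and 13 in the 3 comparisons, were only counted under that rule. A gene that the rule names is not reported here. Alternatives changed the width, fold and overlap limits, the pseudocount, the filter, the scaling, the gene extent, the replicate block and the libraries used.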

Additional observations from a re-analysis of the deposited data

How the results depend on the processing

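The number of regions moved from 661 to 1138 with single windows kept, 208 at 1000 bp or more and 1905 when a window was dropped only for islands in both replicates of another stage, and it ranged from 663 to 1949 when 1 library was left out, highest without leaf replicate 1, then 1612 without leaf replicate 2 and 1126 without inflorescence replicate 2. The genes under regions moved from 220 to 59 at 50% of the body and to 374 with 500 bp on either side (added after seeing the data), and ranged from 221 to 815 without 1 library, with 815 without leaf replicate 1, 666 without leaf replicate 2 and 338 without inflorescence replicate 2. The share standing apart was 19.2% at 1000 bp. Cover by H3K4me3 islands of fold 2 or more was 12.4% in apex t2 and 10.0% in inflorescence, against 13.2% and 11.4% with all islands.

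Called genes under regions numbered 15, 13 and 3 against apex t0, apex t2 and inflorescence when islands in all 8 libraries were required (1.68%, 1.45% and 0.259% of all genes tested were then lower), and 18, 16 and 13 over the 63 tested genes under regions that stood apart (added after seeing the data). Without 1 library they ranged from 10 to 99, from 5 to 100 and from 10 to 81. With the replicate block they were 48, 46 and 30, of which 1, 1 and 0 were higher in leaf, while 6.16%, 5.9% and 2.91% of all tested genes were lower. With islands of fold 2 or more, 35, 33 and 22 were lower and 2 higher in each comparison, while 3.5%, 3.19% and 1.36% of all genes tested were lower. Without leaf replicate 1 or either inflorescence replicate, 1 was higher in leaf than in each apex stage. Among named genes the block added the CYCD3;1 calls against both apices and that of AT3G06435 against inflorescence, and changed no other call. Under fold 2 or more, ARF5 had 0 difference between leaf and inflorescence.

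Of 1206 repeats on named genes, 1084 kept their side of the threshold, 94 lost and 27 gained a call, and the ARF5 value was the other. The causes of these changes were not tested. For H3K27me3, depth differed most between the replicates of inflorescence and of leaf. A gene or region without an island in a shallow library may carry the mark below the authors' threshold. The planned extent with 500 bp before the gene start was not run, since the gene table gives no strand.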

Other observations

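The genes in this section were chosen after their values were seen. JAZ10 and FLA1 had H3K4me3 islands in all 8 libraries and kept their calls against apex t0 and inflorescence without any 1 library. JAZ10, a repressor of jasmonate signalling, had 17.2 and 17.7 RPM in leaf, 47.9 and 62.5 RPM in apex t0, 64.4 and 62.3 RPM in apex t2, and 64.2 and 62.3 RPM in inflorescence, a difference from apex t0 of -1.60 ± 0.15 on the log2(RPM + 1) scale (SE of the fit, limma adjusted p = 0.00493). FLA1, a fasciclin-like arabinogalactan protein, had 30.2 and 35.2 RPM in leaf, 109 and 100.03 RPM in apex t0, 114 and 104 RPM in apex t2, and 105 and 97.2 RPM in inflorescence, a difference from apex t0 of -1.65 ± 0.12 (SE of the fit, limma adjusted p = 0.00266). GH9B8, a relative of GH9B13, had 0 and 3.76 RPM in leaf, 48.8 and 76.8 RPM in apex t0, 48.4 and 52.0 RPM in apex t2, and 28.1 and 78.4 RPM in inflorescence (limma, adjusted p = 0.0224 against apex t0), a call lost without any 1 of 5 libraries.

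H3K4me3 at the apices alone was seen in some genes under regions, a pattern that was not counted over all genes. It was not particular to genes under regions, as CUC2, CUC3, LAS and AGL71, under no region, showed it too. HMA4, a zinc-exporting ATPase, had 0 RPM in both leaf libraries, 13.2 and 30.6 RPM in apex t0, 20.6 and 26.9 RPM in apex t2, and 0 RPM in both inflorescence libraries. NAI1, a factor needed for endoplasmic reticulum bodies, had 0 RPM in leaf, 24.7 and 30.0 RPM in apex t0, 26.3 and 29.9 RPM in apex t2, and 0 RPM in inflorescence. MYB34, a regulator of indole glucosinolate synthesis, had 0 RPM in leaf, 10.1 and 26.7 RPM in apex t0, 8.28 and 12.3 RPM in apex t2, and 0 RPM in inflorescence. The calls of all 3 against the apices were lost without single apex libraries. H3K27me3 islands lay on all 3 genes in all 8 libraries, for example with 63.9 and 56.8 RPM on MYB34 in leaf, against 13.0 and 34.2 RPM in apex t0, 36.7 and 32.5 RPM in apex t2, and 53.9 and 33.8 RPM in inflorescence. The reverse, H3K4me3 in inflorescence alone, was seen in AT4G16270, with 0 RPM in leaf and in both apex stages and 21.7 and 31.3 RPM in inflorescence (limma, adjusted p = 0.0167), a call lost without single libraries of every stage.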
